A study of Mus musculus with 16 samples.

Results

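The 10 genes described here mark inhibitory interneurons, the nerve cells that release the transmitter γ-aminobutyric acid (GABA): Gad1, Gad2, Slc32a1, Dlx1, Dlx2, Dlx5, Dlx6, Lhx6, Sst and Npy. They were chosen by name as 10 of the 45724 genes in the deposited tables, and all 10 were found. The rule used no measured value, but earlier results of these data were known when the genes were chosen. The samples were primary neurons cultured from C57BL/6 mouse brain at postnatal day 0. Groups of 4 total RNA libraries each received NP24, Tβ10 or Tβ4, peptides that the labels attribute to the subcommissural organ, or served as the control, which per the series design was Dulbecco's phosphate-buffered saline. The subcommissural organ is a gland in the roof of the ventricular system that secretes into the cerebrospinal fluid. Tβ10 and Tβ4 belong to the β-thymosins, which bind monomeric actin. All groups share strain and age. The labels give no brain region, dose or duration of treatment, and do not say whether the 4 replicates of a group are separate cultures, so p-values measure spread between these libraries, which may be technical.

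Cortical and hippocampal interneurons arise in the ganglionic eminences of the ventral forebrain and migrate into the areas where they settle. The homeodomain factors Dlx1, Dlx2, Dlx5 and Dlx6 act in that region to set the inhibitory fate, and Lhx6, a LIM-homeodomain factor, acts in cells of the medial eminence, many of which become Sst or parvalbumin interneurons. Gad1 and Gad2 encode the enzymes that make GABA from glutamate, Slc32a1 encodes the transporter that loads GABA into synaptic vesicles, and Sst and Npy encode the neuropeptides somatostatin and neuropeptide Y. Projection neurons of the striatum also use Gad1, Gad2, Slc32a1 and Dlx genes, so the list as a whole is not limited to interneurons.

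The genes lie on 3 chromosomes of build GRCm38, at positions taken from GENCODE M21. Dlx1 (chr2:71528113-71533981, plus strand) and Dlx2 (chr2:71543408-71546754, minus strand) face each other as neighbours, as do Dlx6 (chr6:6863334-6868568, plus) and Dlx5 (chr6:6877805-6882085, minus). Lhx6 (chr2:36081953-36105408, minus), Gad2 (chr2:22622205-22693874, plus), Gad1 (chr2:70553072-70602014, plus) and Slc32a1 (chr2:158610767-158615748, plus) are also on chromosome 2. Sst is at chr16:23889573-23890958 on the minus strand and Npy at chr6:49822710-49829507 on the plus strand. The 250 bases before the RefSeq start (GRCm38.p6, 5′ to 3′ on the gene's strand) are shown for Lhx6, Sst and Npy, the members with unadjusted p under 0.05 for NP24 against control, with the motif TGACGTCA, the cAMP response element, in capitals. For Lhx6, which has several RefSeq starts, the outermost is shown.
Lhx6, chr2:36105409-36105658, minus strand: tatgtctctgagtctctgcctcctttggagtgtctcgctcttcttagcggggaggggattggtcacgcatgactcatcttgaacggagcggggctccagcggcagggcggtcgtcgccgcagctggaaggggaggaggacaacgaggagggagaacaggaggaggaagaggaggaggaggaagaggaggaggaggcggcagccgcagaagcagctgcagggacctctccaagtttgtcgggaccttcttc
Sst, chr16:23890845-23891094, minus strand: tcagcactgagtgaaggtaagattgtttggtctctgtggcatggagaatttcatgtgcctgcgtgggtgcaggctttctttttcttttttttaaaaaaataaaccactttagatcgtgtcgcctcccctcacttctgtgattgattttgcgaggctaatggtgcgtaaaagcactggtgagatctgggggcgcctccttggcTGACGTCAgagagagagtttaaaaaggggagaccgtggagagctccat
Npy, chr6:49822460-49822709, plus strand: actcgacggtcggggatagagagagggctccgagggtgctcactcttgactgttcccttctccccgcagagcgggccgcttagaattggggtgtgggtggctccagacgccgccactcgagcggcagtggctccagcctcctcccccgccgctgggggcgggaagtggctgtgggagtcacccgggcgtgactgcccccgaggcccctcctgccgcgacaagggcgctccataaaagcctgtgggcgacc
Of the motifs searched on both strands, TGACGTCA occurred once in the Sst sequence and neither in the Lhx6 nor in the Npy sequence, and it occurred in 1.55% of 32851 mouse promoter windows of the same length. TAATTA, the core bound by many homeodomain proteins, was in 4.84% of these windows and TATAAA in 12.4%, and neither was in the 3 sequences. RefSeq promoter entries were found for 8 of the 10 genes, not for Dlx5 or Dlx6.

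Between 11642242 and 38254320 reads fell in genes in each library, and every member had reads in all 16 libraries, the fewest being 66 reads of Npy in Tβ10 library 4. The libraries did not vary evenly. Mitochondrial ribosomal RNA took 5.98 to 8.12% of reads with NP24, 4.76 to 9.53% with Tβ10, 8.25 to 24.3% with Tβ4 and 9.32 to 14.2% in controls, the highest being Tβ4 library 1. The NP24 range overlapped neither that of Tβ4 nor that of the controls, and the Tβ10 range overlapped them only in part. A fit with this share as a covariate therefore cannot fully separate it from the group. A GC slope, the slope of a library's log2 deviation from the mean of all libraries on transcript GC content over 24185 genes, was between -0.22 and 0.17 per 10% GC in 15 libraries, and -0.32 in Tβ4 library 2. Tβ4 libraries 1 and 2 together held the lowest of the 16 values for 7 of the 10 members, and library 2 also the highest for Gad1, Gad2 and Dlx6. The Lhx6 differences that involve Tβ4, the counts of members called and the Gad1 and Gad2 differences of Tβ4 from control are therefore given with and without these libraries.

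Levels are deposited read counts divided by the authors' size factor for each library, called normalized counts here. Per kilobase of exon, Sst was the most abundant member in every group, at 2063 ± 361 with NP24, 1787 ± 729 with Tβ10, 1314 ± 502 with Tβ4 and 1519 ± 296 in controls (mean ± SD, n = 4 each). Gad1 and Gad2 came next in every group and their means differed by less than their summed SDs, for example 477 ± 32.3 and 432 ± 31.2 per kilobase in controls. Dlx1 followed, at 340 ± 31.8 with NP24, 316 ± 59.4 with Tβ10, 301 ± 39.7 with Tβ4 and 352 ± 27.8 in controls. The remaining 6 members lay between 153 and 187 per kilobase in controls, and no 2 neighbours in that order differed beyond their summed SDs. Lhx6 was the lowest of the 10 in Tβ4 libraries, at 111 ± 25.5, and also in controls, at 153 ± 11.9, but not with NP24 or Tβ10, where it ranked sixth at 194 ± 22.9 and 182 ± 21.3.

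**Figure D1:**
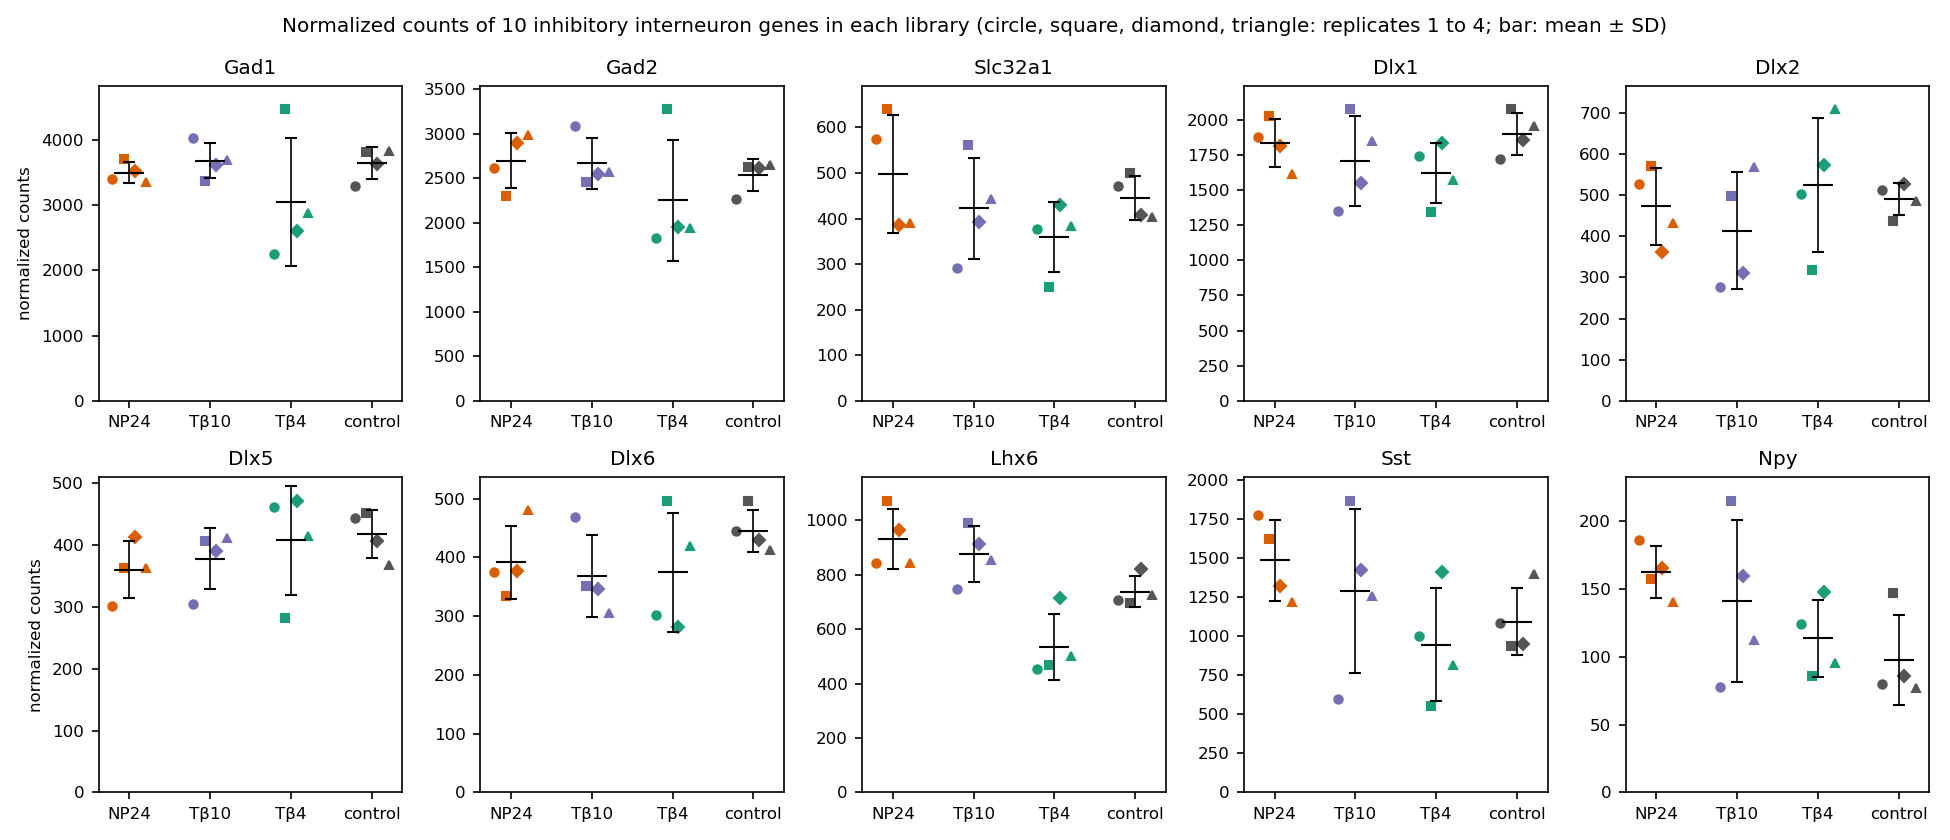
Normalized counts (vertical axes, linear from 0) of the 10 genes in each library, by group, with symbols for replicates 1 to 4 and a bar at the mean with its SD (n = 4). Lhx6 lies between 454 and 716 in Tβ4 libraries and at 746 or above in all NP24 and Tβ10 libraries, and Tβ4 library 2 stands above the other Tβ4 libraries for Gad1 and Gad2.

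Spread also differed between groups. The coefficient of variation over the 4 libraries of a group had a median over the members of 12.3% with NP24, 18.9% with Tβ10, 25.9% with Tβ4 and 7.98% in controls. It was smallest in controls for 7 members and in NP24 for 3, and largest in Tβ10 or Tβ4 libraries for 5 members each. Npy was the exception among controls, at 33.8%, where control library 2 had 147 normalized counts and the other controls 77.4 to 86.2.

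Lhx6 was the 1 member that passed the test in any comparison. It had 843, 1071, 965 and 842 normalized counts in NP24 libraries, 746, 988, 914 and 854 in Tβ10 libraries, 454, 468, 716 and 502 in Tβ4 libraries, and 705, 697, 821 and 727 in controls. In bulk RNA, fewer interneurons and less of a transcript per interneuron cannot be told apart. All 4 Tβ4 values were under every NP24 and Tβ10 value, 3 of them were under every control value, and the NP24 values did not overlap the control values. On the log2(normalized count + 1) scale, Lhx6 was lower with Tβ4 than with Tβ10 by a difference of -0.73 ± 0.14 (SE, 95% interval -1.03 to -0.43, adjusted p = 0.0110, limma over all genes). It was higher with NP24 than with Tβ4 by 0.82 ± 0.14 (0.52 to 1.11, adjusted p = 0.00445, limma). NP24 and Tβ10 differed by 0.09 (-0.21 to 0.39), an interval that includes both no difference and a change of about the size seen against control.

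Against the control, Lhx6 did not pass in any comparison. The differences were 0.33 ± 0.12 for NP24 (adjusted p = 0.131, limma), 0.24 ± 0.12 for Tβ10 (adjusted p = 0.483, limma) and -0.49 ± 0.16 for Tβ4 (adjusted p = 0.505, limma). The unadjusted p was 0.00915 for NP24 and 0.00862 for Tβ4. The Tβ4 difference was -0.41 without Tβ4 library 1 and -0.43 without library 2 (adjusted p 0.994 and 0.176, limma). The authors' deposited table gives Lhx6 an adjusted p of 0.358 for NP24, 0.708 for Tβ10 and 0.161 for Tβ4, the last being the smallest it gives for any member against control.

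The Lhx6 difference between peptides passed in 17 of 20 alternative settings for Tβ4 against Tβ10 and in 18 of 20 for NP24 against Tβ4. It did not pass with the share of mitochondrial ribosomal RNA as a covariate (differences -0.71 and 0.80, adjusted p 0.266 and 0.160, limma) or when the spread came from only the 8 libraries compared (adjusted p 0.115 and 0.0512, limma). Without Tβ4 library 1 it was -0.66 against Tβ10 (adjusted p = 0.0685, limma), and NP24 against Tβ4 was 0.75 (adjusted p = 0.0331, limma). Without Tβ4 library 2 both passed, at -0.67 (adjusted p = 0.00948, limma) and 0.76 (adjusted p = 0.00392, limma).

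**Figure D2:**
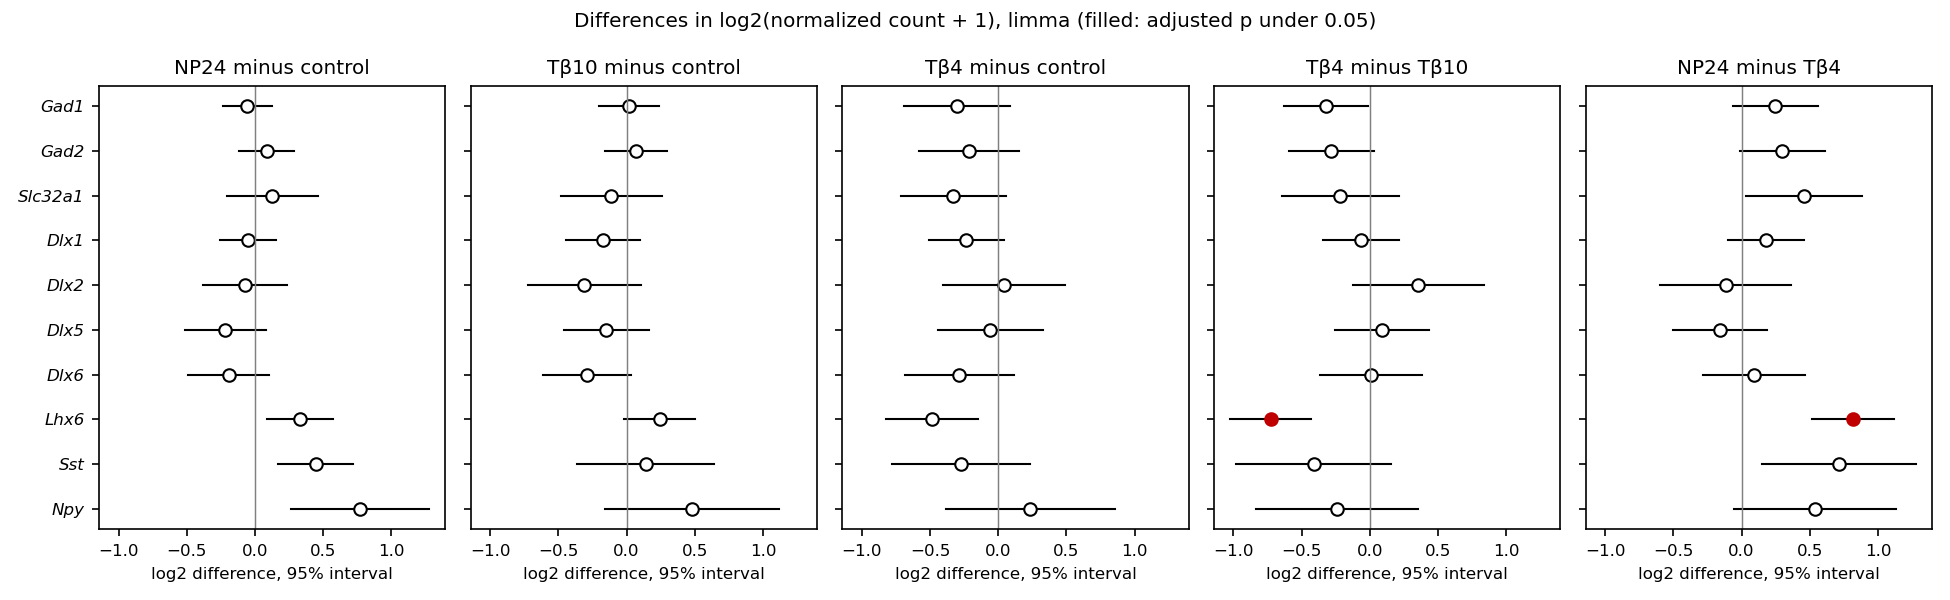
Differences in log2(normalized count + 1) with 95% intervals for the 10 genes in 5 comparisons, each panel giving the group named first minus the one named second, with filled points where the adjusted p was under 0.05. Lhx6 is filled for Tβ4 minus Tβ10 (-0.73) and NP24 minus Tβ4 (0.82), and no other point is filled.

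Over the members, NP24 against control gave 0 calls, where limma called 2.63% of all 21774 genes tested. Their 5 positive and 5 negative differences had a median of 0.02, beside 0.00 for all genes, and 3 members (Lhx6, Sst and Npy) had an unadjusted p under 0.05, as did 17% of genes. The groups did not overlap for 1 member, Lhx6, and for 9.84% of genes. On the recovered read counts, edgeR called 0 members and DESeq2 called 1, Sst. Tβ10 against control also gave 0 calls, with 0.633% of genes called and a median of -0.05, and 0 by edgeR and by DESeq2. The count was also 0 members at an unadjusted p under 0.05, beside 11.2% of genes, and 0 members without overlap, beside 6.92%.
Tβ4 against control gave 0 calls, and 0.0% of all 22205 genes were called (edgeR called 0 and DESeq2 75). Of the members, 8 of 10 had a negative difference with a median of -0.25, beside 0.00 for all genes, and 1 (Lhx6) had an unadjusted p under 0.05, as did 7.06% of genes (1568). The groups overlapped for all 10 members and did not for 4.43% of genes. Without Tβ4 library 2 the count was 2 of 10, Gad1 and Gad2, with 1.63% of genes called, and 0 without library 1.

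Between peptides, 1 of 10 members was called for Tβ4 against Tβ10, where 1.35% of genes were, and 1 of 10 for NP24 against Tβ4, where 2.09% were. The member was Lhx6 in both, and it was also the 1 member whose groups did not overlap, as was the case for 6.59% and 7.54% of genes. At an unadjusted p under 0.05 there were 2 members for Tβ4 against Tβ10 (Lhx6 and Gad1), beside 12.4% of genes, and 3 for NP24 against Tβ4 (Lhx6, Sst and Slc32a1), beside 15%. Medians over the members were -0.23 for Tβ4 against Tβ10 and 0.27 for NP24 against Tβ4, beside 0.00 and -0.01 for all genes. Without Tβ4 library 2 the counts were 3 of 10 in each (Lhx6, Gad1 and Gad2), with 4.38% and 5.80% of genes called, and without library 1 they were 0 and 1, with 0.366% and 0.437%. NP24 against Tβ10 gave 0 members and 0.0% of genes by limma, and 0 of both by edgeR and by DESeq2. At an unadjusted p under 0.05 there were 0 members and 2.44% of genes, and without overlap 0 members and 2.11% of genes. The comparisons with Tβ4 share its 4 libraries, and the comparisons with control share the controls.

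The GABA-synthesis genes were close together in 3 of the groups. Gad1 had 3398, 3707, 3522 and 3358 normalized counts in NP24 libraries, 4035, 3377, 3622 and 3697 in Tβ10 libraries, 2244, 4468, 2604 and 2875 in Tβ4 libraries, and 3294, 3810, 3632 and 3825 in controls. Gad2 had 2616, 2299, 2892 and 2981 in NP24 libraries, 3082, 2461, 2543 and 2570 in Tβ10 libraries, 1832, 3271, 1952 and 1940 in Tβ4 libraries, and 2262, 2626, 2608 and 2648 in controls. In both genes 3 Tβ4 libraries lay under every other library and Tβ4 library 2 lay above all 15. With all libraries, the Tβ4 minus control difference was -0.30 ± 0.18 for Gad1 (adjusted p = 0.825, limma) and -0.21 ± 0.17 for Gad2 (adjusted p = 0.900, limma). Without Tβ4 library 1 they were -0.17 and -0.13 (both adjusted p = 0.994, limma). Without Tβ4 library 2, Gad1 was lower with Tβ4 by -0.50 (adjusted p = 0.0243, limma) and Gad2 by -0.41 (adjusted p = 0.0443, limma).

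NP24 and Tβ10 left no called difference in either decarboxylase gene. Gad1 differed from control by -0.06 with NP24 (95% interval -0.24 to 0.12) and by 0.02 with Tβ10 (-0.20 to 0.24), and Gad2 by 0.08 (-0.12 to 0.29) and 0.07 (-0.16 to 0.30). Slc32a1, the vesicular transporter, had 386 to 640 normalized counts with NP24, 292 to 560 with Tβ10, 251 to 429 with Tβ4 and 403 to 501 in controls. The lowest of these was Tβ4 library 2, and the groups overlapped in every comparison. NP24 minus Tβ4 was 0.46 ± 0.21 for Slc32a1, with an unadjusted p of 0.0373 and an adjusted p of 0.292 by limma, and it was 0.49 without Tβ4 library 1 and 0.29 without library 2.

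None of the 4 Dlx genes passed in any comparison. Dlx1 had 1612 to 2025 normalized counts with NP24, 1349 to 2074 with Tβ10, 1343 to 1832 with Tβ4 and 1719 to 2073 in controls. Dlx2 had 362 to 570 with NP24, 277 to 570 with Tβ10, 318 to 709 with Tβ4 and 438 to 526 in controls. In both, the controls spanned the narrowest range and overlapped each peptide group. Dlx5 had 302 to 414 with NP24, 305 to 411 with Tβ10, 282 to 472 with Tβ4 and 369 to 452 in controls, and its partner Dlx6 335 to 480, 305 to 468, 282 to 496 and 412 to 495 in the same order. Both Dlx5 and Dlx6 had negative differences from control with each peptide, the furthest from 0 being -0.29 for Dlx6 with Tβ10 (unadjusted p = 0.0739, limma).

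The neuropeptide genes had the widest span of the members, with a highest value over the lowest of 3.37 for Sst and 2.78 for Npy. Sst had 1781, 1624, 1325 and 1218 normalized counts in NP24 libraries, 601, 1868, 1428 and 1257 in Tβ10 libraries, 1004, 554, 1414 and 817 in Tβ4 libraries, and 1087, 941, 953 and 1400 in controls. Controls 1, 2 and 3 were under every NP24 value and control library 4 was not. The NP24 minus control difference was 0.44 ± 0.13 (95% interval 0.17 to 0.72, unadjusted p = 0.00319, adjusted p = 0.0760, limma). It passed in 5 of 20 alternatives, namely DESeq2 (adjusted p = 0.0466), library-size scaling (0.0381), the GC slope as a covariate (0.00221), and without NP24 library 4 (0.0242) or control library 4 (0.0320).

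Npy had 186, 158, 166 and 141 normalized counts in NP24 libraries, 77.7, 215, 159 and 113 in Tβ10 libraries, 124, 86.3, 148 and 95.8 in Tβ4 libraries, and 80.3, 147, 86.2 and 77.4 in controls. NP24 values were above 3 controls and overlapped control library 2. The NP24 minus control difference was 0.77 ± 0.24 (0.27 to 1.28, unadjusted p = 0.00446, adjusted p = 0.0916, limma), and it passed in 0 of 20 alternatives. With Tβ10, Sst and Npy each ran from a near-lowest value (library 1) to the highest of all libraries (library 2), and their differences from control were 0.14 ± 0.24 and 0.48 ± 0.30 (adjusted p 0.876 and 0.587, limma).

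The members varied together in sets that differed in GC content. Within groups, taken as deviations from the group means over 16 libraries, the 3 members with the lowest transcript GC (Gad2 44.8%, Gad1 49.8%, Dlx6 51.9%) correlated positively with each other in all 3 pairs, with Pearson r of 0.63 to 0.84. The 7 other members, at 53.7% (Npy) to 61.9% (Slc32a1) GC, correlated positively in all 21 pairs, at 0.27 to 0.85. Between these sets all 21 correlations were negative, from -0.80 to -0.21. Without Tβ4 library 2 the counts were 3 of 3 and 21 of 21 positive and 20 of 21 negative. GC content was brought in after the data were seen, and the sets divide where the sign of the correlations changes. The libraries share depth and composition effects, and the correlations are given as descriptions.

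Each member's deviation also tracked its library's GC slope. Pearson r within groups was -0.84 for Gad2, -0.82 for Dlx6 and -0.55 for Gad1, and 0.41 for Npy to 0.87 for Slc32a1 among the other members (n = 16). The median GC content of the genes in the slope was 49.0%, so Gad1 and Dlx6 had negative r although their GC content was above that median. For Gad1 it rested on Tβ4 library 2, being 0.04 without it, and for Dlx5 it was 0.14 without it and 0.54 with it, while it was -0.72 for Gad2, -0.73 for Dlx6 and 0.82 for Slc32a1 without it. Over all libraries Gad1, Gad2 and Lhx6 also had a Pearson r of -0.81, -0.73 and -0.64 with the share of mitochondrial ribosomal RNA. Within groups these were -0.85, -0.63 and -0.04, so for Lhx6 the correlation lay between the groups. Dlx5 had 0.59 over all libraries and 0.61 within groups. The part of these measures in any group difference was not tested beyond the fits that hold them as covariates. The mitochondrial share separates NP24 from control and Tβ4 libraries, so a call lost in its fit cannot be assigned to the share or to the group.

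**Figure D3:**
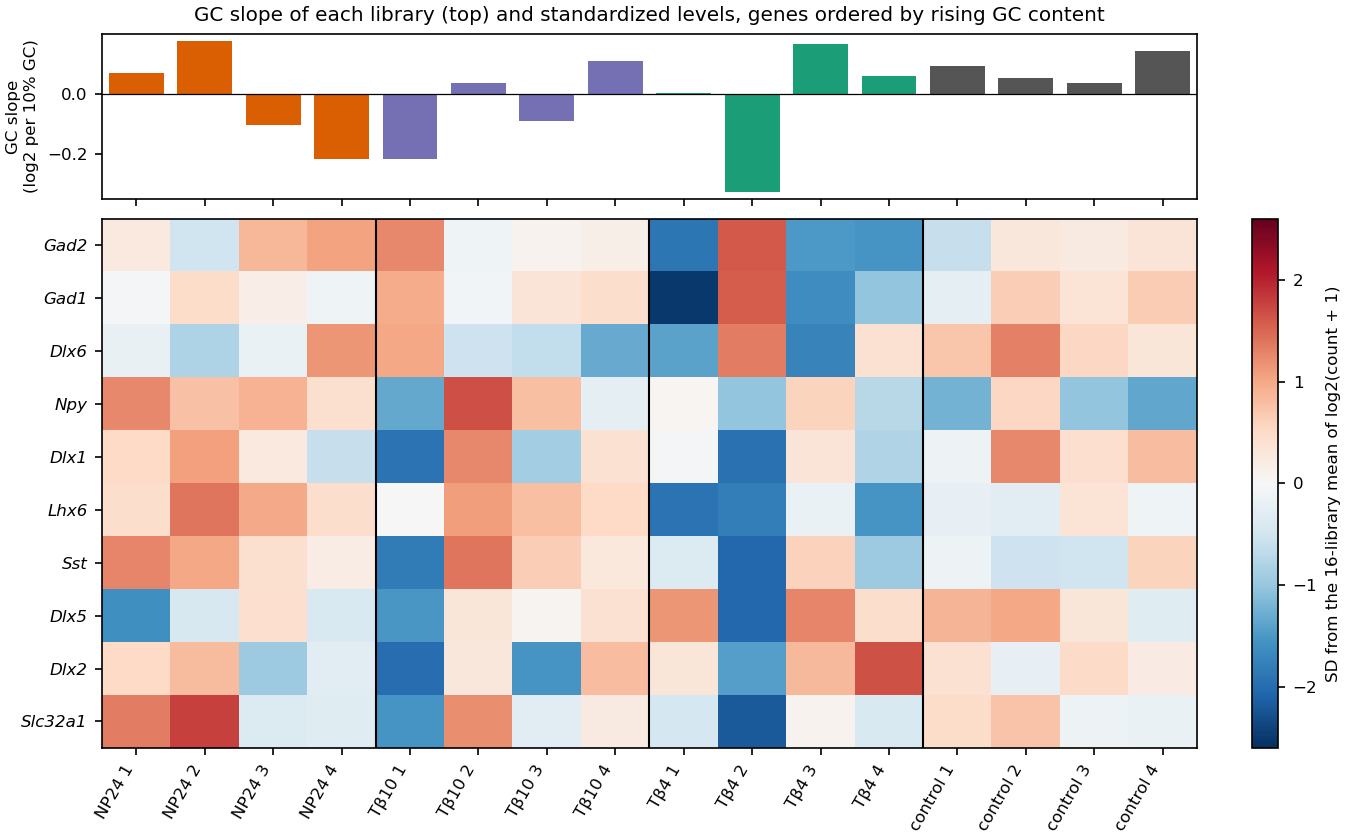
Top, the GC slope of each library (log2 per 10% GC); bottom, log2 levels of the 10 genes in each library in SD from the 16-library mean, with genes from the lowest GC content (Gad2, 44.8%) down to the highest (Slc32a1, 61.9%). Tβ4 library 2, with the lowest GC slope (-0.32), is high for the top 3 genes and low for the others.

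**Figure D4:**
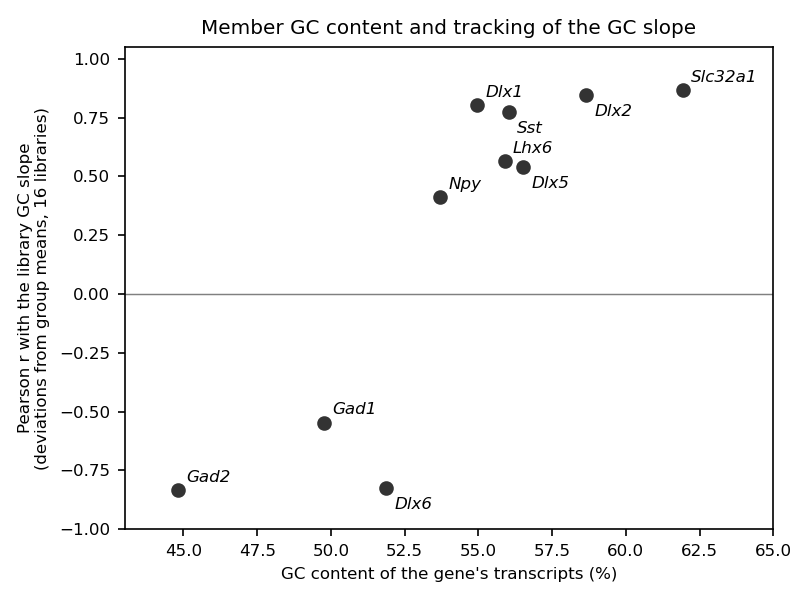
Transcript GC content of each gene (horizontal axis, %) against the Pearson r between its within-group deviations and the library GC slope (vertical axis, 16 libraries), 1 point per gene. The 3 genes under 52% GC have negative r (-0.84 to -0.55) and the 7 others positive r (0.41 to 0.87), a division made where the sign changes.

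Fitting the GC slope as a covariate, a choice made after the data were seen, left Lhx6 called between peptides (Tβ4 minus Tβ10 -0.74, adjusted p = 0.000861, and NP24 minus Tβ4 0.81, adjusted p = 0.000311, limma). It added Sst for NP24 against control (0.60) and Sst and Slc32a1 for NP24 against Tβ4 (0.70 and 0.45). The share of all genes called in these fits was 4.03%, 5.75% and 5.13% for Tβ4 against Tβ10, NP24 against Tβ4 and NP24 against control.

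Several members overlap antisense transcripts, and the strand setting of the counting is not given in the sources used here, so reads of overlapping partners cannot be told apart. Gm14205 covers 24.9% of the exon bases of Slc32a1, Dlx1as 6.21% of those of Dlx1 and Dlx6os2 4.38% of those of Dlx6, while Dlx6os1 and Gad1os share no exon base with their partners. Dlx6os1, a long noncoding RNA whose gene spans Dlx6 on the opposite strand, had 4054 to 4982 normalized counts with NP24, 3326 to 4990 with Tβ10, 2617 to 7308 with Tβ4 and 4204 to 4765 in controls, again with Tβ4 library 2 highest. Dlx1as averaged 2557 ± 178, 2433 ± 288, 2219 ± 110 and 2703 ± 196 with NP24, Tβ10, Tβ4 and in controls (SD, n = 4), and Gad1os 404 ± 46.1, 443 ± 52.4, 420 ± 69.4 and 422 ± 51.9.

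Genes that work beside the members were compared through lists of known names. Among 15 other interneuron transcription factors, 14 were tested in each comparison and Maf, which acts in interneurons of the medial eminence like Lhx6, was the 1 that passed. Maf had 1541, 1392, 1155 and 1131 normalized counts in NP24 libraries, 998, 1142, 1079 and 972 in Tβ10 libraries, 665, 760, 766 and 512 in Tβ4 libraries, and 879, 921, 909 and 1014 in controls. NP24 values were all above, and Tβ4 values all below, those of the controls. Maf rose with NP24 against control by 0.48 ± 0.11 (adjusted p = 0.0267, limma), was lower with Tβ4 than with Tβ10 by -0.65 ± 0.14 (adjusted p = 0.0173, limma), and was higher with NP24 than with Tβ4 by 0.95 ± 0.14 (adjusted p = 0.000708, limma). These passed in 14, 14 and 19 of 20 alternatives. With the mitochondrial rRNA share as a covariate none of the 3 passed, the differences being 0.26, -0.61 and 0.91 (adjusted p 0.991, 0.297 and 0.0640, limma), and the first and second did not pass with the other choice of libraries in the fit (0.122 and 0.121). The NP24 rise also did not pass without NP24 library 1 or any of control libraries 1 to 3 (adjusted p 0.0626 to 0.114, limma), nor the Tβ4 difference from Tβ10 without Tβ10 library 2 or 3 or Tβ4 library 1 or 4 (0.0504 to 0.0799).

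The next smallest p-values in that list for NP24 were those of Sox6 (-0.34, adjusted p = 0.0526, limma) and Gsx2 (-1.16, adjusted p = 0.137, limma). With Tβ10 against control Prox1 and Sox6 were among the nearest to passing, at adjusted p 0.160 and 0.447 by limma, and with Tβ4 Maf (-0.48) and Sp9, at 0.476 and 0.768. The median over the list was -0.01 for NP24, -0.16 for Tβ10 and 0.01 for Tβ4 against control. It was 0.04 for Tβ4 against Tβ10 and -0.03 for NP24 against Tβ4, where Maf was called. In these 2 comparisons 4 and 7 of the 14 tested had an unadjusted p under 0.05 by limma, beside 12.4% and 15% of genes. Sox6 did not follow Maf, with 4794 to 6243 normalized counts with NP24, 4609 to 13882 with Tβ4 and 6238 to 6907 in controls.

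Of 19 interneuron subclass markers, 15 to 17 were tested, and Reln, which encodes the secreted glycoprotein reelin, passed. Bulk RNA does not show which cells of the cultures made it. Reln averaged 4717 ± 208 normalized counts with NP24, 4270 ± 374 with Tβ10, 3107 ± 900 with Tβ4 and 3523 ± 455 in controls (SD, n = 4). It rose with NP24 against control by 0.43 ± 0.09 (adjusted p = 0.0180, limma) and was higher with NP24 than with Tβ4 by 0.64 ± 0.15 (adjusted p = 0.0223, limma), in 16 and 12 of 20 alternatives. Neither passed with the mitochondrial covariate, where the differences were 0.26 and 0.35 (adjusted p 0.991 and 0.433, limma), or the other choice of libraries in the fit (0.217 and 0.111). The first also did not pass without NP24 library 3 (0.0517) or control library 1 (0.0972), nor the second without any 1 NP24 library or Tβ4 library 1 or 4 (0.0520 to 0.105). Against Tβ10, Tβ4 differed by -0.49 (adjusted p = 0.102, limma). Calb1, Erbb4, Cck, Lamp5, Htr3a, Chodl and Kit had the next smallest p-values against control and did not pass. Calb1 was higher with NP24 and Tβ10, Erbb4 lower with NP24, and Cck and Lamp5 lower with Tβ10. With Tβ4, Chodl was higher and Htr3a and Kit lower. At an unadjusted p under 0.05 by limma there were 5 of 16 tested for NP24, 7 of 15 for Tβ10 and 3 of 17 for Tβ4, beside 17%, 11.2% and 7.06% of genes. Their list medians were 0.05, -0.11 and -0.08. Pvalb averaged under 10 normalized counts in NP24, Tβ10 and control libraries and Vip in all 4 groups, so the markers of those subclasses were at or near the limit of measurement.

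**Figure D5:**
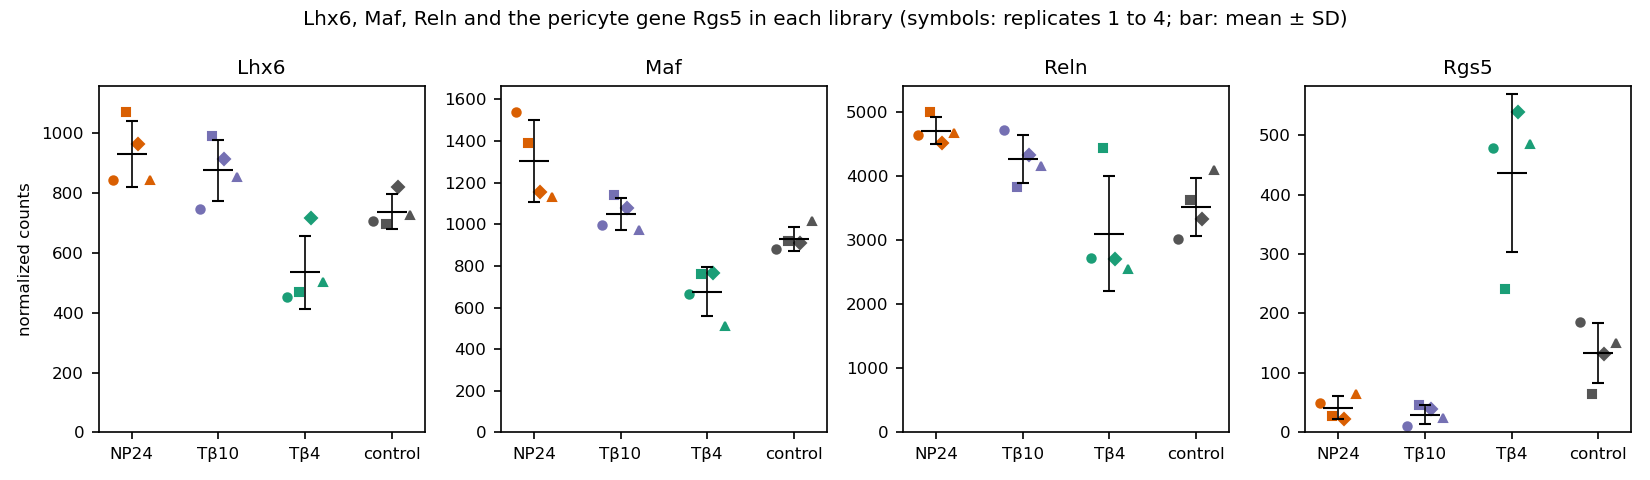
Normalized counts (vertical axes, linear from 0) of Lhx6, Maf, Reln and Rgs5 in each library, by group, with symbols for replicates 1 to 4 and a bar at the mean with its SD (n = 4). Lhx6 and Maf are lowest in Tβ4 libraries (means 535 and 676), Reln is lowest in 3 of them, and Rgs5 is highest in Tβ4 libraries (mean 436).

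Genes of GABA transport and breakdown and of the inhibitory postsynapse, 12 in number with 11 tested, held 1 call. Slc6a11, the GABA transporter found on astrocytes, rose with NP24 to 2061 ± 154 normalized counts, against 1424 ± 182 in controls, by 0.54 ± 0.11 (adjusted p = 0.00754, limma). With Tβ10 it rose to 2284 ± 200 by 0.69 ± 0.12 (adjusted p = 0.00783, limma), and with Tβ4 it was 1722 ± 212 (0.27, adjusted p = 0.750, limma). With the mitochondrial covariate neither rise passed, the differences being 0.23 and 0.42 (adjusted p 0.991 and 0.571, limma), nor without control library 1 (0.0529 and 0.0664), and that with Tβ10 did not pass without Tβ10 library 3 (0.0605). Abat, Slc12a2, Nlgn2 and Slc12a5 were among those with the next smallest p-values against control and did not pass. Among 13 genes of striatal projection neurons, which share part of the member list, Six3, Drd2, Drd1, Adora2a, Rgs9 and Ppp1r1b were among those with the smallest p-values against control and did not pass.

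Markers of other cells moved with the groups. The 6 fibroblast and mural genes summed to 151 to 225 normalized counts with NP24, 133 to 197 with Tβ10, 748 to 2029 with Tβ4 and 386 to 616 in controls. Their 4 tested members (Col1a1, Col3a1, Pdgfrb and Rgs5) all fell with NP24 and with Tβ10 against control, and were all higher with Tβ4 than with Tβ10 and lower with NP24 than with Tβ4, while for Tβ4 against control limma called 0 of the 4, all with an unadjusted p under 0.05. Dcn was under 10 on average in every group and Lum was without a read in controls. The fibroblast and mural sum was highest in the group where Lhx6 and Maf were lowest, and its part in those differences was not tested.

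Aqp4, an astrocyte water channel, rose with NP24 (1.70) and Tβ10 (1.67) against control, 1 of 6 astrocyte genes each, and the 6 summed to 8760 to 9301, 7335 to 9906, 9294 to 11004 and 6383 to 8026 normalized counts with NP24, Tβ10, Tβ4 and in controls. For Tβ4 against control limma called 0.0% of all genes, but 5 of the 6 had an unadjusted p under 0.05, beside 7.06% of genes. With NP24 and Tβ10, 4 and 3 did, beside 17% and 11.2%. The median over the 6 against control was 0.26 with NP24, 0.23 with Tβ10 and 0.49 with Tβ4. Mbp and Olig2 of 7 oligodendrocyte-lineage genes fell with NP24 (-0.59 and -0.67), and Mbp was lower with NP24 than with Tβ4. Csf1r and C1qa of 6 microglia genes were higher with Tβ4 than with Tβ10 and lower with NP24 than with Tβ4, with C1qa averaging 2.74, 4.79 and 61.5 with NP24, Tβ10 and Tβ4. At under 10 with NP24 and Tβ10, C1qa passed the filter mainly through groups where it was higher, so its calls are no separate evidence. The 6 summed to 1695 to 1812 with NP24, 1629 to 1986 with Tβ10, 1913 to 2179 with Tβ4 and 1683 to 1933 in controls. Of 8 excitatory and 7 pan-neuronal genes 0 were called in any comparison by limma, with 0 to 3 of each list at an unadjusted p under 0.05, and the 3 smallest p-values for NP24 were those of Neurod6, Emx1 and Slc17a6 and of Stmn2, Tubb3 and Rbfox3. The excitatory sum was 15513 to 17252 with NP24, 16764 to 18225 with Tβ10, 12887 to 20059 with Tβ4 and 15015 to 18225 in controls. The pan-neuronal sum was 65954 to 72447 with NP24, 64000 to 71673 with Tβ10, 50101 to 71820 with Tβ4 and 57689 to 65171 in controls. The median pan-neuronal difference was 0.38 for NP24 against Tβ4 and -0.21 for Tβ4 against Tβ10, beside 0.27 and -0.23 over the 10 interneuron genes, and 0.17, 0.11 and -0.11 for NP24, Tβ10 and Tβ4 against control. The part of the general neuronal level in the members' differences was not tested. Cldn5, a defining endothelial gene, had 0 reads in NP24 and Tβ10 libraries, but it also averaged under 10 normalized counts with Tβ4 and in controls. It was therefore near the limit of measurement in every group, and Pecam1 did not pass. The sum of these 2 genes was 33.4 to 86.3 with NP24, 17.8 to 44.1 with Tβ10, 26.9 to 122 with Tβ4 and 58.0 to 84.6 in controls.

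Genes with the most similar patterns over the 16 libraries were ranked among 12558 genes that averaged at least 50 normalized counts. The mean standardized level of the 10 members was followed most closely by Vamp2 (Pearson r = 0.92), and Sv2a, Sptan1, Mturn, Gabbr1 and Disp2 (r = 0.89) were among the next. Within groups Gad1, Gad2 and Dlx6 ran against the other members, so this mean does not stand for each of them. In Tβ4 library 2 the mean was -0.80, while Gad1, Gad2 and Dlx6 were at 1.58, 1.60 and 1.33. Gad2 was followed by Nrcam (0.97), Osbpl6, Syt1, Pigk and Csrnp3 (0.95). Ranked after the members' values were seen, Lhx6 was followed by Pdzd4 (0.95), Sh3bp5, Ppp2r2c, Gnal and Jph3 (0.93), and Sst by Pip4k2b (0.95), Arf3, Gpd1l, Olfm1 and Cdk5r1 (0.94).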

How the data were processed

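Total RNA of 16 libraries, 4 per group, was sequenced after RNeasy Micro purification and SMARTer Stranded library preparation, per the labels. Per the submitters' processing notes, FastQC, HISAT or HISAT2, featureCounts and DESeq2 were used with GRCm38; versions, annotation and strand setting are not given in the sources used here. The deposited values are signal, gene counts divided by 1 size factor per library, and are the same in the 3 deposited tables to within 4.9e-07. All nonzero values (100%) were whole reads at a tolerance of 0.01 reads. The authors' deposited log2 fold changes with their standard errors, their score (the Wald statistic) and their p-values with adjusted p appear only where named.

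Because the values are normalized, limma-trend 3.58.1 in R 4.3.3 was run on log2(value + 1), keeping genes that reached 10 in 4 or more of the compared libraries. P-values were adjusted by Benjamini-Hochberg over every gene kept, and 0.05 was the limit. The control comparisons used 8 libraries and the peptide pairs 1 fit of 16. The fits were tested on simulated data with the same spread in every group and no library set apart. That test does not cover the unequal spread of the groups here. The depth limits the precision of members with few reads, Npy most. The results were recomputed with edgeR 4.0.16, with DESeq2 1.42.0 (both on recovered reads), with library-size and TMM scaling, pseudocounts of 0.1 and 10, no filter, replicate block, the other choice of libraries in the fit, length slope and mitochondrial rRNA covariates, each library left out and, added after seeing the data, a GC slope covariate.

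The members, lists, tests and naming rule were chosen with earlier results of these data known. All members were named, list genes with adjusted p under 0.05, and otherwise up to 3 per list with the smallest p; patterns were ranked by Pearson r. Some genes that this rule would name are not reported here.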

Additional observations from a re-analysis of the deposited data

Results flagged for a closer look

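Among the 40 combinations of member and group, 3 held a library that lay apart from the other 3 of its group, by a gap that as a share of the group's range was above Dixon's 95% critical value for 4 samples. Chance flags about 5% of groups. Gad2 was 3271 normalized counts in Tβ4 library 2, and 1832 to 1952 in the other Tβ4 libraries. Gad2 was also 2262 in control library 1, below 2608 to 2648 in the other controls. Npy was 147 in control library 2, above 77.4 to 86.2 in the other controls.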

How the results depend on the processing

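Lhx6 kept its direction in all 20 alternatives of each peptide comparison, and its 2 calls between peptides were lost only in the settings given above; of the member results that passed in no main comparison, Sst with NP24 and Gad1 and Gad2 with Tβ4 depended most on the setting. On the recovered reads edgeR called 518, 129 and 0 genes for NP24, Tβ10 and Tβ4 against control, 317 for Tβ4 against Tβ10, 550 for NP24 against Tβ4 and 0 for NP24 against Tβ10. The cause of the changes that follow was not tested. Numbers of genes called in place of 572 for NP24 against control were 1178 (DESeq2), 365 (no filter), 120 (all 16 libraries in the fit), 0 (mitochondrial rRNA covariate) and 1118 (GC slope covariate). In place of 139 for Tβ10 against control they were 423, 62, 0 and 65 with DESeq2, 16 libraries, the mitochondrial and the GC covariate, and 91 with the replicate block. For Tβ4 against control, 0 in the main fit, they were 75 with DESeq2, 440 with the GC covariate, and 2 each with 16 libraries and with the replicate block. In place of 326 for Tβ4 against Tβ10 they were 807 (DESeq2), 614 (library size), 184 (no filter), 77 (only 8 libraries), 10 (mitochondrial) and 977 (GC), and 214 with the replicate block. In place of 507 for NP24 against Tβ4 they were 1172, 109, 7 and 1394 with DESeq2, only 8 libraries, the mitochondrial and the GC covariate.

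Library-size scaling moved the median of all genes by -0.18 for Tβ4 against Tβ10 and to 0.13 for NP24 against Tβ4, and turned the split of higher and lower calls from 254 and 72 into 165 and 449, and from 107 and 400 into 363 and 269. The number of members called was 1 in place of 0 for NP24 against control with DESeq2, library size or the GC covariate, 0 in place of 1 in both comparisons with Tβ4 when only 8 libraries or the mitochondrial covariate were used, and 3 in place of 1 for NP24 against Tβ4 with the GC covariate. Leaving out 1 library gave 106 to 760, 28 to 315 and 0 to 354 genes for NP24, Tβ10 and Tβ4 against control, 87 to 1052 for Tβ4 against Tβ10 and 104 to 1392 for NP24 against Tβ4, with 0 to 1, 0, 0 to 2, 0 to 3 and 1 to 3 members called. The largest shifts came without Tβ4 library 2, control library 1 and Tβ4 library 1.

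Replicate numbers did not pair the libraries: deviations of same-numbered libraries correlated at -0.30 to 0.11, and samples did not all match their own number best. Used as a block, the replicate number changed no member's call and gave 477 and 341 genes for NP24 against control and against Tβ4.

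Some differences changed sign as follows, none of them called in the main comparisons; not all were near 0 there, as Gad1 and Gad2 were -0.32 and -0.28 for Tβ4 against Tβ10 and 0.25 and 0.30 for NP24 against Tβ4, and Sst was -0.27 for Tβ4 against control. With the GC covariate, Dlx1, Dlx2 and Gad2 were 0.015, 0.054 and -0.0040 for NP24 against control; Dlx1, Dlx2, Gad1, Gad2, Nlgn2 and Slc32a1 were 0.012, 0.065, -0.036, -0.022, 0.069 and 0.12 for Tβ10; Dlx5 and Sst were 0.087 and 0.0012 for Tβ4. With the mitochondrial covariate, Drd2 and Slc32a1 were 0.11 and -0.048 for NP24 against control, Gad1, Gad2 and Slc32a1 were -0.12, -0.068 and 0.097 for Tβ10, and Dlx2 was -0.058 for Tβ4. In the same fit, Dlx5, Gad1 and Gad2 were -0.22, 0.11 and 0.042 for Tβ4 against Tβ10, and Dlx2, Dlx5, Dlx6, Gad1 and Gad2 were 0.0048, 0.15, -0.17, -0.18 and -0.027 for NP24 against Tβ4. With library size, Dlx2 was -0.045 for Tβ4 against control and 0.025 for NP24 against Tβ4, Dlx5 and Dlx6 were -0.096 and -0.18 for Tβ4 against Tβ10, and Gad2 was -0.026 for NP24 against Tβ10. Dlx6 was -0.0088 with TMM and -0.0074 with the length slope for Tβ4 against Tβ10, and Gad2 -0.00044 with the length slope for NP24 against Tβ10.

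With 1 library left out, the ranges that crossed 0 were, for NP24 against control, -0.10 to 0.0058 (Dlx1), -0.17 to 0.048 (Dlx2) and -0.0042 to 0.24 (Slc32a1). For Tβ10 against control they were -0.031 to 0.057 (Gad1), -0.0039 to 0.10 (Gad2), -0.26 to 0.052 (Slc32a1) and -0.076 to 0.47 (Sst), and for Tβ4 -0.12 to 0.27 (Dlx2) and -0.14 to 0.11 (Dlx5). Tβ4 against Tβ10 gave -0.17 to 0.038 (Dlx1), -0.011 to 0.26 (Dlx5) and -0.14 to 0.13 (Dlx6), NP24 against Tβ4 -0.34 to 0.046 (Dlx2) and -0.032 to 0.24 (Dlx6), and NP24 against Tβ10 -0.17 to 0.014 (Dlx5), -0.0054 to 0.22 (Dlx6), -0.034 to 0.091 (Gad2) and -0.026 to 0.52 (Sst). Scaling by library total moved the mean level by over 1 SD for Gad1 with NP24 (3763) and Tβ10 (4084) and for Gad2 with Tβ10 (2952). The fewest reads of a member in a library were 66 for Npy, which sets the widest counting error.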
